A study of Mus musculus with 16 samples.

Results

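The regions described here are stretches of mouse chromosomes 1 to 19 that carried a peak of H3K27me3 after the EZH2 inhibitor GSK343 and no peak after the solvent DMSO. A member was a peak of the wild-type (WT) or mutant GSK343 list that shared no base with a DMSO peak of either genotype. The WT list gave 340 members among 11854 peaks (2.87%) and the mutant list 190 among 10705 (1.77%). Merged where they overlapped, they formed 482 regions: 300 held by WT, 144 by the mutant and 38 by both genotypes. The 4 deposited lists hold 112048 peaks in all. The members were chosen by the authors' peak calls, so the values below describe them and carry no test.

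The cells were B cells from the spleen, isolated with CD43 beads from C57BL/6 mice that were 6 to 8 weeks old. They were cultured for 48 hours with the B cell survival factor BAFF and the cytokine IL-4, each at 2 ng/mL, in DMSO or in 1 µM GSK343. The mice were WT or carried the Ifih1/Rigi/cGAS triple mutant genotype, which affects 3 cytosolic sensors of nucleic acids, and the nature of the mutant alleles is not given in the labels. Each genotype and treatment had 2 ChIP and 2 input samples and is represented by 1 peak list, so no spread between replicates could be given. The lists read as called on pooled duplicates, but the prefix of the peak names in each mutant list ends in 1, which may mean replicate 1 alone. Read depth is unknown. None of the 7 B cell marker genes, among them Cd79a and Pax5, had a peak in any list, while 3 of 6 T cell markers (Cd3e, Cd3g and Cd4) and 2 of 5 myeloid markers (Cebpa and Mpo) had one in WT DMSO.

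H3K27me3 is the trimethylation of lysine 27 of histone H3. The Polycomb repressive complex PRC2, whose catalytic subunit is EZH2 or EZH1, deposits it over silent genes of other lineages, often as wide domains around CpG-rich gene starts. GSK343 competes with the methyl donor in EZH2, and the mark is then lost as modified histones are diluted or replaced.

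The place of a few members at gene starts can be read from sequence. Promoter windows, 250 bases before to 50 bases after a start, are from RefSeq (GRCm38.p6), and 15 of 31396 windows on chromosomes 1 to 19 (0.0478%), belonging to 11 genes, touched a region. The windows below are those of the 3 genes with the most CG dinucleotides among those where a narrow region lay across the start, and of Cbr3 and Epn2, whose whole window lay in a wide region held by both genotypes. Each is printed 5′ to 3′ on the strand of the gene, with the bases inside the region in capitals.
Smarca5, minus strand, chr8:80739410-80739709: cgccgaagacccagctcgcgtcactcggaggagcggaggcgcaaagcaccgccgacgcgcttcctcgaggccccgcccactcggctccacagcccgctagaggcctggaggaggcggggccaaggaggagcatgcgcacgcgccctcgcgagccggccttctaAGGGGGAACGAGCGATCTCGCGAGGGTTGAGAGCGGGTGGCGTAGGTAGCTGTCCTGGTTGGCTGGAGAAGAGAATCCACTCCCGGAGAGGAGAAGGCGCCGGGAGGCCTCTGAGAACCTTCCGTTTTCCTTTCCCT
Tent5a, minus strand, chr9:85327101-85327400: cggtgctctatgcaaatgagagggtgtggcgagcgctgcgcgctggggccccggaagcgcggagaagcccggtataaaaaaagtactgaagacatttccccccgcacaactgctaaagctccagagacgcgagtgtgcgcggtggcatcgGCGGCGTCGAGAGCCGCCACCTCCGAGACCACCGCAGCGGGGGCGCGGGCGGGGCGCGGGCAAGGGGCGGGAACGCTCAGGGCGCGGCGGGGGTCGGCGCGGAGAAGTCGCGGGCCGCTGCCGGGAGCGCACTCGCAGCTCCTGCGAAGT
Arrdc3, plus strand, chr13:80885845-80886144: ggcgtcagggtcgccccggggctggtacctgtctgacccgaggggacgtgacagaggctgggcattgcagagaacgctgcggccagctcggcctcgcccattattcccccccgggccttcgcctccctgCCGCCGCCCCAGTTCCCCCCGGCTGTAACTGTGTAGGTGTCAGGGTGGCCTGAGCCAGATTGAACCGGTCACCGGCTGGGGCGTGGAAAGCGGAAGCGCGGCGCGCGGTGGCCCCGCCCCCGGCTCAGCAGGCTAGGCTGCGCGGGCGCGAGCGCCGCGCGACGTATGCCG
Cbr3, plus strand, chr16:93682969-93683268: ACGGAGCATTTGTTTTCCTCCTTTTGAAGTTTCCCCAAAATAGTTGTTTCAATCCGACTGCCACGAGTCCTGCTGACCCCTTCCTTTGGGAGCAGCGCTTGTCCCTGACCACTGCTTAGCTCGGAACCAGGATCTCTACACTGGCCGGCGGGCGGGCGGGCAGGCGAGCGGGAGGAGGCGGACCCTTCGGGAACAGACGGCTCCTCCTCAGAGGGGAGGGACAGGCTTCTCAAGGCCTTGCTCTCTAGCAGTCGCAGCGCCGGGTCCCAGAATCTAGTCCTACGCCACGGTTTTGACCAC
Epn2, minus strand, chr11:61579638-61579937: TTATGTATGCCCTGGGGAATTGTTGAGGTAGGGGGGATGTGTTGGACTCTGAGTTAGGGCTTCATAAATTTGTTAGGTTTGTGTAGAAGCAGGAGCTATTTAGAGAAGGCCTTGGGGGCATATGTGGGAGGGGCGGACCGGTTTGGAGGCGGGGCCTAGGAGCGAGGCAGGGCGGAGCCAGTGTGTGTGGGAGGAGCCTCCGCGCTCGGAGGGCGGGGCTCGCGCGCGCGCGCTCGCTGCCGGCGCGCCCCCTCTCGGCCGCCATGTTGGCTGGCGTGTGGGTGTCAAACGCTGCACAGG
The Smarca5 window holds 32 CG dinucleotides, that of Tent5a 42 and that of Arrdc3 35, while Cbr3 has 19 and Epn2 23. All windows of the table have a median of 7, with quartiles of 3 and 20. Smarca5, Tent5a and Arrdc3 were picked for high counts, so their contrast with all windows follows from that choice. Over the 11 genes the count ran from 0 to 46. The lowest counts were 0 in Fam166a, 3 in C530044C16Rik, 10 in Gm34620 and 14 in Arl10. The letters GGGCGG, searched on both strands, were found in windows of 7 of the 11 genes and in 35.7% of all windows. The letters TATAAA, searched in the same way, were found in 1 of the 11, Tent5a, and in 13.6% of all windows.

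The 38 regions held by both genotypes all lay where peaks are missing from both DMSO lists. Each DMSO list numbers its peaks in order of position, and blacklisted peaks were removed before deposit, per the file names. An absent number between 2 neighbours therefore marks a called peak that is not in the deposited list. Such a gap in the numbers occurred between 1.04% of neighbouring WT DMSO peaks and 0.983% of neighbouring mutant DMSO peaks. Since the gaps are long, they took up 8.61% and 7.71% of the bases between DMSO peaks. Both DMSO lists lacked a number at 38 of the 38 regions held by both genotypes (100%, 95% Wilson interval 90.8 to 100%). They did so at 46 of the 444 regions held by 1 genotype (10.4%, 7.86 to 13.5%). Intervals here cover the counting of regions only, and neighbouring regions are not independent. Where in a gap the missing peaks lay cannot be read from the lists, and their part in the result was not tested.

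This divides the regions into 3 sets. At 84 regions both DMSO lists lacked a number, at 11 regions 1 list did, and at 387 regions neither did. For the 84, each DMSO list lacks at least 1 called peak between its own peaks that flank the region. Whether such a peak overlapped a region cannot be told. The gaps described below are bounded by the nearest DMSO peaks of either list. The DMSO numbers given as absent for a gap were counted between each list's own flanking peaks, which can lie farther out. An absent peak may therefore have lain outside the gap. The 33 gaps that hold the 84 regions were 11.1 to 3745 kb wide. These 84 regions made up 17.4% of the number and 47.7% of the 309.6 kb covered, with a median width of 1066 bp against 306 bp for the 387. Of the 26 regions at least 2 kb wide, 25 were among the 84, and 23 were held by both genotypes. A region held by both genotypes has the merged length of its peaks, and all such regions were among the 84. For single peaks, the median width where both DMSO lists lack a number was 1410 bp in WT and 862 bp in the mutant. Where neither list does, it was 329 bp in WT and 263.5 bp in the mutant.

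**Figure D1:**
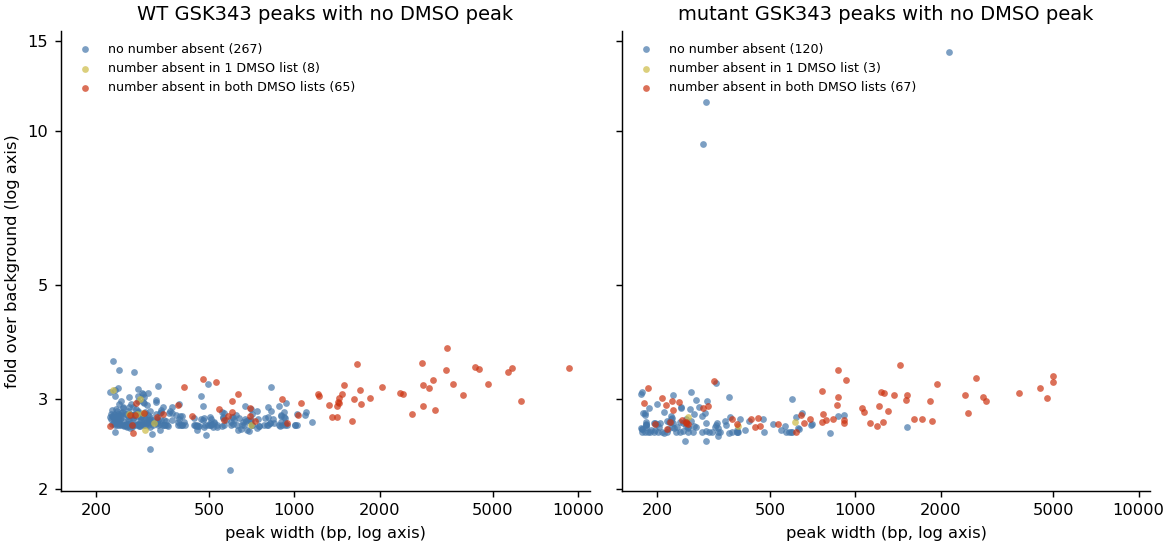
Width of each member peak (bp, log axis) against its fold over background, the authors' value for ChIP signal relative to the local background (log axis), for the WT list on the left and the mutant list on the right. Colours give how many of the DMSO lists lack a peak number at that place; the peaks wider than 2 kb are red except 1 mutant peak, in Ncapd3, at a fold of 14.2.

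The regions held by both genotypes fell into 15 gaps between DMSO peaks, and 3 of these gaps held 21 of the 38. The gap at Epn2, which encodes the endocytic adaptor epsin 2, spanned 72.2 kb (chr11:61555088-61627246) and held 18 regions, of which 11 were in both genotypes. WT GSK343 had 14 peaks there over 38.0% of the bases, and mutant GSK343 had 16 peaks over 23.9%. DMSO peaks of both lists continued through the body of Epn2 to the left of the gap, 10 in WT and 5 in the mutant. Between its own peaks flanking this gap each DMSO list lacks 2 numbers, and the GSK343 lists lack none. The region over the Epn2 start (chr11:61578187-61581969) held the WT member with the highest fold, 3.77, and mutant peaks up to 3.49. It reached from -2282 to 1500 bp relative to the start, counted along the gene, so the whole printed window lies inside.

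The gap over Gm5682, a pseudogene next to the major histocompatibility class Ib gene H2-T3, spanned 48.2 kb (chr17:36198590-36246751). It held 12 regions, 7 of them in both genotypes, with 9 WT peaks over 29.7% and 11 mutant peaks over 36.2% of the bases. Each DMSO list lacks 1 number between its own peaks flanking the gap, and the GSK343 lists lack 1 (WT) and 2 (mutant). The gap at BC107364 spanned 51.1 kb (chr3:96428353-96479436) and held 7 tRNA and 2 snRNA genes. WT peaks covered 44.7% of it in 4 peaks and mutant peaks 17.1% in 7 peaks. Each DMSO list lacks 1 number between its own peaks flanking this gap, while the GSK343 lists lack 2 (WT) and 6 (mutant). The widest region of all, 9.34 kb at chr3:96467631-96476973, was a single WT peak with a fold of 3.44, and 2 mutant peaks covered 545 bases of it, up to a fold of 3.24.

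**Figure D2:**
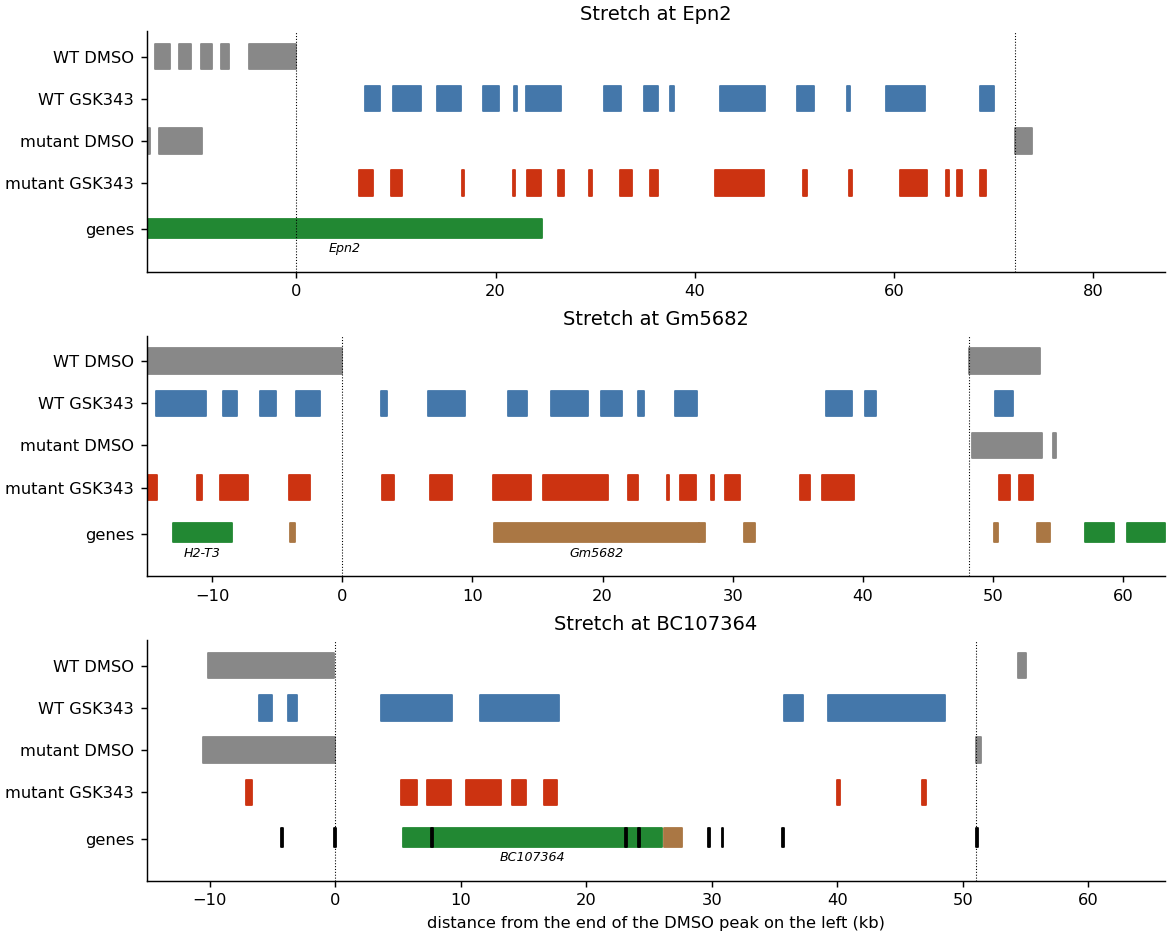
Peaks of the 4 lists in the 3 gaps with the most regions held by both genotypes, as distance in kb from the end of the DMSO peak on the left; dotted lines mark the gap between DMSO peaks. Green bars are protein-coding genes, brown bars pseudogenes and black ticks tRNA genes. GSK343 peaks of WT (blue) and mutant (red) cover part of the gaps, in which no DMSO peak (grey) is listed.

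Of the other 12 gaps, 1 spanned H2-Q4, H2-Q5, H2-Q6, H2-Q7 and H2-Q10, class I genes of the major histocompatibility complex (chr17:35367300-35498865). It held 4 regions, and the DMSO lists lack 10 (WT) and 8 (mutant) numbers between their own peaks flanking it. Both of its shared regions lay outside these genes, between H2-Q10 and Pou5f1. A gap in the immunoglobulin kappa locus Igk (chr6:68207870-68292669) held 2 regions, with 7 and 3 numbers absent. The others named by a protein-coding gene in or over a shared region were at Exoc3l4, Mylk, Cbr3, Pfdn4 with Cyp24a1, and Pak1. Cbr3 encodes a carbonyl reductase, Pfdn4 a prefoldin subunit, Cyp24a1 the hydroxylase that inactivates vitamin D, Mylk myosin light chain kinase and Pak1 a kinase downstream of Rac and Cdc42. The remaining shared regions lay near Bahcc1, in the lncRNA Gm46363, over the tRNA gene n-TPcgg1, between genes on chromosome 18, and in a gap with 8 tRNA genes on chromosome 3. The 15 gaps held 22 of the 391 tRNA genes on chromosomes 1 to 19, in 3 gaps, and 2 regions overlapped a tRNA gene itself, n-THgtg2 and n-TPcgg1. WT GSK343 also lacks at least 1 number in 12 of the 15 gaps and mutant GSK343 in 11. How often numbers are absent over the whole GSK343 lists was not counted, and the order of numbers was checked in the DMSO lists only. These counts are therefore not read as a trait of the gaps.

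These 38 regions hold overlapping peaks of both genotypes by definition, so only the extent of the overlap is described. WT peaks covered 100.1 kb and mutant peaks 70.3 kb of their 115.1 kb, and 55.2 kb lay in both, which is 55.2% of the WT and 78.6% of the mutant length. The WT peaks were the longer in 27 regions and the mutant peaks in 11. The highest fold per region ran from 2.76 to 3.77 in WT, with a median of 3.06, and from 2.58 to 3.49 in the mutant, with a median of 2.97. Each fold is relative to its own list's background, so no difference between the genotypes is read from these values. The nearest DMSO peak lay 1380 to 38782 bp away, with a median of 8622 bp.

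The 10 shared regions given one by one were picked by the lower of their WT and mutant folds, a rule used only to choose which to name. The region over the Epn2 start had 3.77 in WT and 3.49 in the mutant. The Cbr3 start (chr16:93681361-93684778) had 3.41 in both genotypes. A second region of the Epn2 gap, upstream of the gene (chr11:61597075-61602101), had 3.43 in WT and 3.33 in the mutant. In the BC107364 gap, the widest region and the one over BC107364 and n-THgtg2 (chr3:96431969-96437649) had mutant folds of 3.24 and 3.20 and WT folds of 3.44 and 3.38. Over Gm5682, chr17:36214048-36220097 had 3.19 in WT and 3.23 in the mutant, and chr17:36224144-36225807 had 3.51 and 3.09. Exoc3l4 (chr12:111427184-111432483) had 3.46 and 3.15, the Pfdn4 start (chr2:170493866-170499736) 3.44 and 3.08, and Mylk (chr16:34744061-34746494) 3.28 and 3.05.

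Away from the gaps in the numbers, no member was shared between the genotypes. Of the 267 WT members at places where neither DMSO list lacks a number, 0 were overlapped by a mutant GSK343 peak (Wilson interval up to 1.42%). Of the 120 mutant members of this kind, 0 were overlapped by a WT GSK343 peak (up to 3.10%). Over the whole lists on these chromosomes, 57.6% of WT GSK343 peaks had a mutant partner and 71.6% of mutant GSK343 peaks had a WT partner. With all members the shares were 40 of 340 in WT (11.8%, 8.76 to 15.6%) and 46 of 190 in the mutant (24.2%, 18.7 to 30.8%). The rule removes every place with a DMSO peak, so the members' shares describe what was left. Members of this kind were also narrower and weaker than the GSK343 peaks that a DMSO peak overlaps, as given below. The share with a partner among other peaks of like width and p-value was not counted.

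The members outside the gaps were narrow and lay close to the limit of calling. In WT the 267 had a median width of 329 bp (quartiles 266 and 565 bp) and a median fold of 2.73 (2.67 and 2.80). GSK343 peaks overlapped by a DMSO peak had a median width of 1085 bp and a median fold of 2.97. In the mutant the 120 had a median width of 264 bp (212 and 358 bp) and a median fold of 2.66 (2.58 and 2.76), against 940 bp and 2.92 for the overlapped peaks. The median −log10 p-value of the 267 was 3.88 and the smallest in the WT GSK343 list 3.47. In the mutant these values were 3.95 and 3.60. The DMSO lists reach to lower −log10 p-values, with smallest values of 2.81 in WT and 2.58 in the mutant. The smallest −log10 q-values were close, 1.04 in WT DMSO, 1.03 in mutant DMSO and 1.07 in each GSK343 list.

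Members were most frequent among the GSK343 peaks with the largest p-values. With the WT list cut by p-value into 10 equal parts, to within 1 peak, 8.94% of the peaks in the part with the largest values were members (7.44 to 10.7%), and 0.0844% of those in the part with the smallest. In the mutant list these shares were 4.202% (3.15 to 5.58%) and 0.374% (0.145 to 0.957%). Values of 5 or more on the −log10 scale were reached by 9.12% of WT members and 37.2% of overlapped WT peaks, and by 16.8% of mutant members and 42.3% of overlapped mutant peaks.

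**Figure D3:**
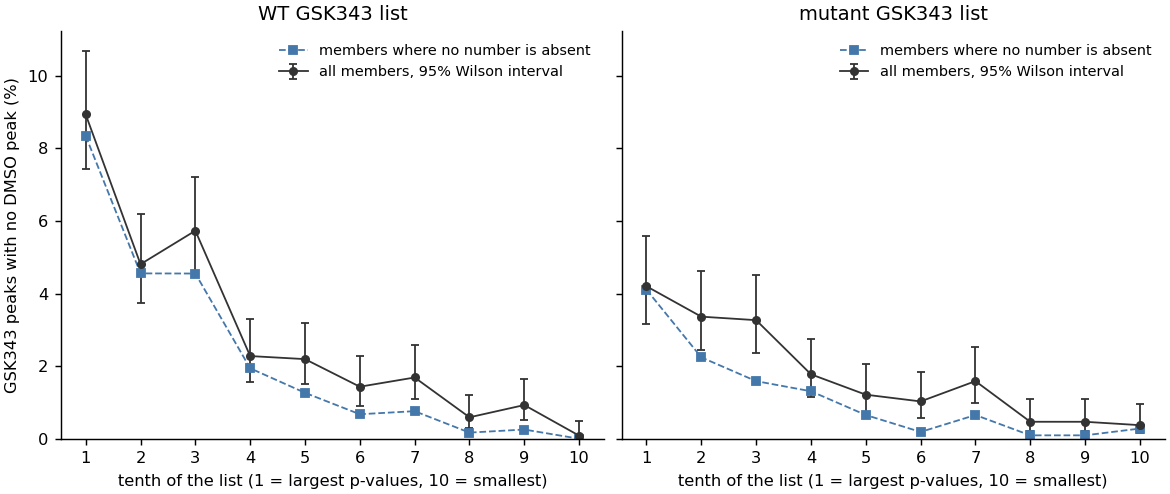
Share of GSK343 peaks with no DMSO peak (%) in 10 parts of the WT (left) and mutant (right) GSK343 lists ordered by p-value, from the largest (1) to the smallest (10). Black points are all members with 95% Wilson intervals and blue squares those where neither DMSO list lacks a number; in WT the share falls from 8.94% to 0.0844%.

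At the edge of the rule, the peaks just outside had the higher folds in WT. The nearest WT member touched a DMSO peak without sharing a base (chr2:30670457-30670845, fold 2.70), and the next lay 3, 4, 5 and 8 bp away, with folds of 2.65 to 2.67. The nearest mutant member lay 10 bp away (chr2:26266596-26267003, fold 2.61), and the next lay 20 to 70 bp away, with folds of 2.58 to 2.82. Just outside the rule, the WT GSK343 peaks with the smallest overlaps shared 7 to 13 bases with a DMSO peak and had folds of 2.75 to 3.05. The mutant peak with the smallest overlap shared 2 bases (chr1:35548498-35548712, fold 2.87). The next mutant peaks shared 19 to 37 bases and had folds of 2.58 to 2.79, so the mutant folds inside and outside the rule overlapped.

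Many of the 387 regions outside the gaps bordered a DMSO peak. The nearest DMSO peak lay within 1 kb of 144 regions (37.2%), over 1 to 10 kb from 133, over 10 to 100 kb from 63 and more than 100 kb from 47 (12.1%). The median distance was 1597 bp for the 267 WT regions (quartiles 346 and 6417 bp) and 8443.5 bp for the 120 mutant regions (1186 and 118788 bp). DMSO peaks lay within 10 kb on both sides of 136 WT regions (50.9%, 44.97 to 56.9%) and 33 mutant regions (27.5%, 20.3 to 36.1%). Regions more than 100 kb from a DMSO peak numbered 15 of 267 in WT (5.62%, 3.43 to 9.06%) and 32 of 120 in the mutant (26.7%, 19.6 to 35.2%). WT regions thus lay closer to DMSO peaks than mutant regions did. With 1 list for each genotype this difference was not tested. The mutant DMSO list is the longer one, and it was the nearer of the DMSO lists for 197 of the 267 WT regions and for 94 of the 120 mutant regions.

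**Figure D4:**
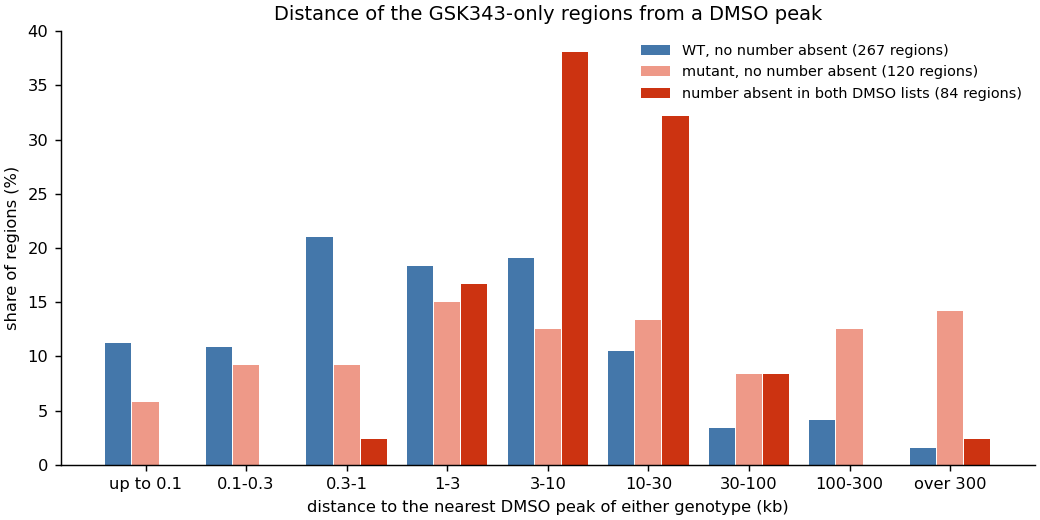
Share of regions (%) by distance to the nearest DMSO peak of either genotype (kb), for WT regions and mutant regions where neither DMSO list lacks a number and for the 84 regions where both do. WT regions are most frequent within 1 kb (115 of 267), while 32 of 120 mutant regions lie over 100 kb away.

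The most distant regions came from the mutant. The 5 farthest were all mutant and lay 795 to 1588 kb from a DMSO peak, the farthest among olfactory receptor genes near Olfr1095 (chr2:86842813-86843110). Their folds were 2.48 to 2.99. The 15 WT regions beyond 100 kb had a median fold of 2.79, and 4 of them lay in a protein-coding gene. The 32 mutant regions had a median fold of 2.70, with 7 in such a gene. Outside the gaps a member also lay far from other peaks of its own list, with a median of 33399 bp in WT and 128585 bp in the mutant. For GSK343 peaks overlapped by DMSO the medians were 4173.5 and 2483 bp.

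Among the members 3 had a fold above 5, all in the mutant, and none lay where a DMSO number is absent. A 2137 bp peak in Ncapd3, which encodes a subunit of condensin II, had a fold of 14.2 and a −log10 p-value of 67.9 (chr9:27068734-27070870), and the nearest DMSO peak was 36.4 kb away. The peaks on Rn7s1 (chr12:69159298-69159594) and Rn7s2 (chr12:69361190-69361478) had folds of 11.4 and 9.43 and −log10 p-values of 47.9 and 35.7. These genes are copies of 7SL RNA, the RNA of the signal recognition particle, and each peak covered nearly the whole gene. They are 2 of the 3 scRNA genes of the gene table, and the third, Mascrna, had no peak. The copies are alike in sequence, and how the authors treated reads with several matches is not given in the sources used here. The 3 other lists had no peak at these 3 places. The next highest mutant member had a fold of 3.49, at Epn2, and WT had no member above 3.77. In the mutant GSK343 list as a whole 5 peaks were above 5, the other 2 being in Gm34259 (93.9) and Ano2 (10.8), which a DMSO peak overlapped.

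Other members of high fold outside the gaps were short. In WT they were led by peaks in Myo1d, a class I myosin gene (chr11:80615403-80615631, 229 bp, fold 3.55), in Nnmt, which encodes nicotinamide N-methyltransferase (chr9:48542609-48542849, fold 3.41), and in the lncRNA 4930567H12Rik (chr8:125597595-125597865, fold 3.37). In the mutant the peak after Ncapd3 and the 7SL copies was in Tcf12, which encodes an E protein transcription factor (chr9:71971328-71971650, fold 3.21), 153 kb from a DMSO peak. A fold of at least 3 was reached by 18 of the 267 WT and 9 of the 120 mutant regions.

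Members seldom held a gene start, taken from the RefSeq promoter table. Of all 482 regions 9 did (1.87%, 0.985 to 3.51%). By list, 7 of 340 WT members (2.06%) and 5 of 190 mutant members (2.63%) held one, against 23.1% and 23.4% of the GSK343 peaks that DMSO peaks overlapped. Members were narrower than those peaks, with median widths of 375.5 against 1085 bp in WT and 314.5 against 940 bp in the mutant. A wider peak has more bases to hold a start, and width was not taken into account, so the shares are not read as a trait of place. Of the 9 regions, 5 lay where both DMSO lists lack a number, at Epn2, Cbr3, Pfdn4, Pak1 and the lncRNA Gm34620. The first 4 of these were held by both genotypes and were 3.42 to 5.87 kb wide. The other 4 regions, where no number is absent, were single narrow peaks. Smarca5, which encodes a chromatin remodelling ATPase of the ISWI family, had a mutant peak of 188 bp (fold 2.58), 127 kb from any DMSO peak. Tent5a, which encodes a poly(A) polymerase, had a WT peak of 236 bp (fold 2.67). Arrdc3, an arrestin-domain gene, had a WT peak of 279 bp (fold 2.68), and the small GTPase gene Arl10 had one of 478 bp (fold 2.75) only 132 bp from a DMSO peak. In the printed windows of the first 3, the capitals run from the upstream edge of the peak to the last base printed, and each peak went on into the gene beyond the window.

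**Figure D5:**
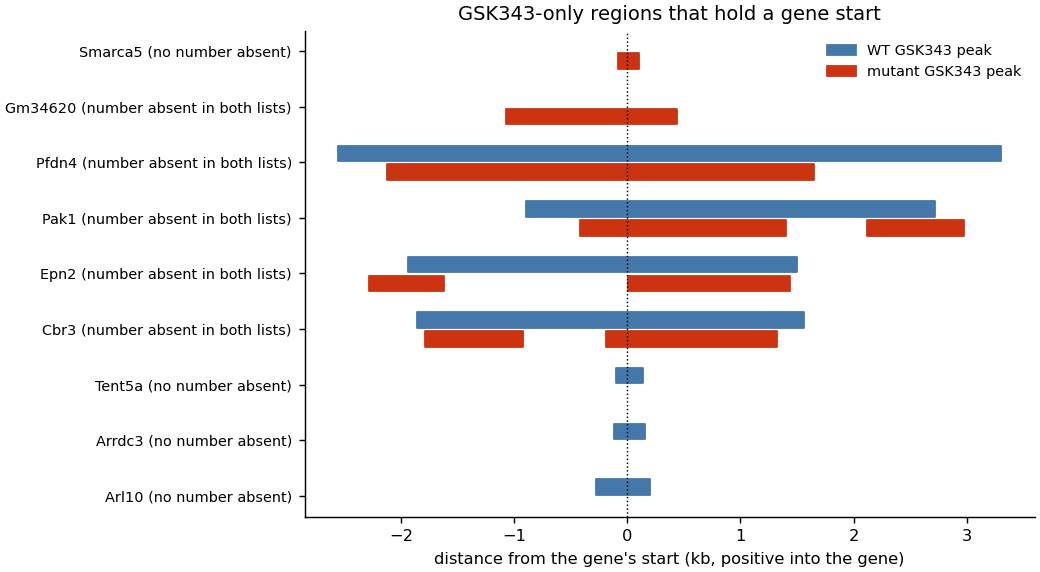
Member peaks of WT (blue) and mutant (red) GSK343 at the 9 regions that hold a gene start, as distance from the start in kb, positive into the gene; the label says whether peak numbers are absent from the DMSO lists there. Epn2, Cbr3, Pfdn4 and Pak1 carry wide peaks in both genotypes and the 4 starts with no absent number carry narrow peaks of 188 to 478 bp in 1 genotype.

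By position, 183 of the 482 regions (38.0%, 33.7 to 42.4%) lay in the body of a protein-coding gene and 241 in no gene. Of WT members 36.5% and of mutant members 40.0% lay in such a body, against 60.5% and 63.5% of the overlapped GSK343 peaks. The overlapped peaks were the wider ones, and width was not taken into account in this comparison. Regions lay in 168 of 20661 protein-coding genes (0.813%), and those outside the gaps in 152 (0.736%). The 168 genes were long, with a median of 82.0 kb against 17.5 kb for all protein-coding genes, and long genes offer more bases to overlap. A DMSO peak lay elsewhere in the body of 146 of the 168. The share of all protein-coding genes, or of genes this long, with a DMSO peak was not counted. The 146 are therefore not read as a trait of these genes.

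More than 1 region was found in 12 protein-coding genes. Epn2 had 7, Exoc3l4 had 3, and BC107364, Mylk, Pfdn4, Pkd2l1 and Ifi27l2b had 2 each, all of them where both DMSO lists lack a number. Ifi27l2b belongs to an interferon-inducible family, and its regions were a mutant peak (fold 3.26) and a WT peak (fold 2.97) that did not overlap. The other 5 genes had 2 regions each where no number is absent: Ano7, Anpep, Arhgap26, Cntnap2 and Gabbr2. In Anpep, which encodes aminopeptidase N, a WT peak of 260 bp (chr7:79828841-79829100, fold 2.72) and a mutant peak of 812 bp (chr7:79829399-79830210, fold 2.57) lay side by side without overlap. In Gabbr2, a GABA-B receptor gene, and in Arhgap26 the regions also came 1 from each genotype. In Ano7 and Cntnap2, a neurexin family gene, both came from WT.

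The gene lists examined held no member. None of the 141 genes in the lists for B cell identity, T cells, myeloid cells, nucleic acid sensors, interferon-stimulated genes, Polycomb subunits, developmental regulators and Hox genes had a region, and 0 is near the background of 0.813% for genes at large. None of the 1573 olfactory receptor, Zfp and histone genes had a region. For this many genes, a share of 0.813% would give more than 0. Gene length was not taken into account for these families, and the difference was not tested.

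The regions were spread over the chromosomes. Chromosome 11 held 45, chromosome 2 and chromosome 17 held 40 each, and chromosomes 10, 14 and 19 held 13 each. Chromosome length and the number of GSK343 peaks on each chromosome were not taken into account, so none is read as high or low. Without the places of absent numbers, chromosome 11 kept 21, chromosome 17 kept 22 and chromosome 3 kept 15 of 26, while chromosomes 4, 5, 8, 10 and 14 kept all of theirs.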

How the data were processed

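The 4 deposited lists of broad H3K27me3 peaks, 1 per genotype and treatment, were analysed, with groups read from the labels. Per the submitters' processing notes the build is mm10 and the tools include Bowtie2 2.4.2, MACS2 2.2.7.1 and bedtools 2.29.2; settings are not given in the sources used here. The deposited fold of each peak is a linear ratio over background, the deposited −log10 p-values and q-values are the peak caller's, and the deposited score (a whole number near 10 times the −log10 q-value) was not used. An overlap is at least 1 shared bp. Absent peak numbers were counted between the flanking peaks of each DMSO list; numbers followed position on 31 of 31 chromosomes and contigs in both DMSO lists. Genes and promoter windows are from RefSeq tables of GRCm38.p6, counted from 1; 79.9% of protein-coding genes have a window. Shares carry 95% Wilson intervals.

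The regions named were the 10 held by both genotypes with the highest lower fold, and chosen from the highest, widest, nearest and farthest members, the peaks just outside the rule, those in genes with 2 or more regions or of the fixed lists, and those on small RNA genes. Regions at gene starts and the H2-Q and Igk gaps were singled out after their values were seen. Members and lists were chosen with earlier results of these data known. Sequence of regions outside promoter windows was not used here. Python 3.11.15, numpy 2.4.6, pandas 2.3.3 and scipy 1.17.1 were used; the overlap code was tested on simulated data and gave the same value as bedtools 2.31.1 in 4 of 4 comparisons.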

Additional observations from a re-analysis of the deposited data

How the results depend on the processing

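Of 8 settings, 7 were fixed earlier and 1, leaving out places of absent DMSO numbers, was chosen after seeing the data. Over 6 results this made 48 values, of which 23 stayed (within 1.5 times a count, or within a share's interval) and 25 moved. With at least 50% of the GSK343 peak covered as the overlap, and with all chromosomes and contigs, every one of these 6 results stayed. Avoiding only the DMSO list of the same genotype gave 768 WT and 289 mutant members in 1009 regions, and 6.25% of WT members had a mutant GSK343 partner. With no DMSO peak within 1 kb there were 222 WT members, 18.02% with a partner. With a q-value of at most 0.01 in both GSK343 lists there were 48 WT and 40 mutant members in 73 regions, 14 held by both genotypes, and 29.2% of WT members had a partner. A −log10 p-value of at least 5 gave 31, 32, 52, 11 and 35.5% in the same order, with 32.7% of regions in a protein-coding gene. A fold of at least 3 gave 48, 30, 65, 13 and 27.1%. Without places of absent DMSO numbers there were 120 mutant members, 0 regions held by both genotypes and 0% of WT members with a partner. The causes were not tested beyond what each filter removes by construction. No paired analysis was possible because a group's only values are those of 1 list, none per replicate. Nor could single replicates be left out. Depth is unknown, so a missing DMSO peak cannot be told from one below the threshold.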
